A study of Mus musculus with 18 samples.

Results

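Keratins are the proteins that build the intermediate filaments of epithelial cells, and this account covers all keratin genes on the array. The members are the probe sets (sets of short probes that report 1 transcript each) whose single platform gene symbol is Krt followed by a number and at most 1 letter; the keratin-associated protein genes, Krtap, were left out. The rule gave 61 of 45101 probe sets, which belong to 48 of the 18193 genes that have a probe set of their own. Of these 48 genes, 28 passed a filter on low values and were tested, among 11569 genes tested in all. A gene with several probe sets is represented by the one with the highest mean.

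The arrays measured RNA of skin cells sorted from mice of genotype K5tTA x pTRE-H2B-GFP (FvB and CD1 background), and every group carries both transgenes. The keratin 5 promoter drives a histone H2B-GFP label in these mice, so that only cells in which this promoter is active make the label. Doxycycline in the food (1 g per kg) switched off its synthesis in all groups, and each division then diluted the label. Sorting used CD34 and α6-integrin at the surface, and GFP. At postnatal day 25 (PD25), with doxycycline from PD22, the fractions were bulge cells that had divided 1 to 2 times (divided bulge), bulge cells with 0 divisions (undivided bulge) and non-bulge cells, whose division number is not given. The same 3 fractions were taken at PD21, with doxycycline from PD18. There were 3 mice at each age, and each mouse gave all 3 fractions, which makes 6 groups of 3 arrays and 18 arrays in all.

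A keratin filament is assembled from a type I and a type II keratin, so keratins are made in partner sets that differ between epithelial layers. Basal cells of skin make Krt5, Krt14 and, in the bulge (the stem cell niche of the hair follicle), much Krt15. Differentiating epidermis makes Krt1 and Krt10. Krt6a and Krt75 belong to the companion layer of the follicle, where the innermost bulge layer also makes Krt6a, and Krt6a and Krt16 are induced in wounds. Krt8, Krt18 and Krt19 are keratins of simple epithelia, while other members build the inner root sheath and the hair shaft.

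Values are array signals, given as log2 of the signal plus 16 and called log2 signal below. On this scale a signal of 0 reads 4, and the fold changes of dim genes are understated. Levels of different probe sets are not compared, since each has its own response. A gene was called when its adjusted p was under 0.05 in limma over all 11569 genes. Since 1 mouse gave 1 array of each fraction, the adjusted p with the mouse in the model is given wherever it changes a call. Nothing in the labels gives cultures or pools. The p-values rest on the spread between mice within a group, pooled over the 6 groups of 3 mice and moderated across genes. With the mouse in the model for fractions of an age, the spread is that left after differences between mice are taken out.

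The labelled fractions were checked against marker genes. The summed signal of 8 bulge markers was 33341 to 46956 in divided bulge, 35704 to 48249 in undivided bulge and 3155 to 3657 in non-bulge cells at PD25. At PD21 it was 6471 to 10637 in the arrays labelled divided bulge, 38399 to 54477 in undivided bulge and 2298 to 3418 in non-bulge cells. The sum of 5 non-bulge epidermis markers in the arrays labelled divided bulge at PD21 was 11296 to 15630, against 12907 to 17782 in non-bulge and 2777 to 3317 in undivided bulge cells of that age. Thus all 3 arrays of the divided bulge at PD21 stood nearer to the non-bulge arrays than to the undivided bulge arrays in these sums, which the brightest markers dominate. Of the 8 bulge markers, 4 were called higher there than in non-bulge cells (0.182% of all genes) and 7 lower than in undivided bulge (4.37%). Cd34, whose protein served in the sort, had log2 values of 9.19, 7.91 and 9.68, against 13.12, 12.40 and 12.67 in undivided bulge and 4.10, 4.10 and 5.36 in non-bulge cells. No comparison of this group can be made without those arrays, and the part of other cells in its results was not tested. All 6 markers of differentiating epidermis were above the array median on all 18 arrays, in bulge fractions too.

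The hybridisation control probe sets split the arrays into 2 sets of 9, each holding whole mice. Set A held PD25 mouse 1 and PD21 mice 1 and 2, and set B held PD25 mice 2 and 3 and PD21 mouse 3. The mean log2 signal of the controls was 10.96 to 11.31 in set A and 12.62 to 13.15 in set B. The highest signal on an array was 52589.3 to 81213.7 in set A and 30707.6 to 44607.4 in set B. Abundant keratins were higher in set A, Krt15 and Krt77 by 1.23 each, Krt10 by 1.01, Krt5 by 0.96 and Krt14 by 0.95 on the log2 scale. Values within each set are therefore given beside the called results. In these, set A has 1 mouse at PD25 and set B has 1 mouse at PD21, and a lone array is assumed to vary like the other groups.

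At PD21, 4 of the 28 tested keratin genes were higher and 0 lower in undivided bulge over non-bulge cells, and over all genes tested 6.12% were higher and 4.93% lower. At PD25 the same comparison gave 4 higher and 2 lower keratin genes, against 5.71% and 4.83% of all genes. In divided bulge over non-bulge cells at PD25, 3 keratin genes were higher and 1 lower, against 5.62% and 3.25% of all genes. At PD21 this comparison gave 0 keratin genes at the threshold, where 0.182% of all genes passed. At an unadjusted p under 0.05 it gave 3 keratin genes, against 487 of all 11569 genes. In divided over undivided bulge at PD21, 1 keratin gene was higher and 2 were lower, against 3.91% and 4.37% of all genes. At PD25 limma called 0 of the 28 and 0% of all genes in that comparison. At an unadjusted p under 0.05 there were 3 keratin genes, against 635 of all 11569 genes. In the comparisons over non-bulge cells that held calls, the share of keratin genes called as higher was above that over all genes. It rests on at most 4 genes in a comparison, no test of the list was run, and the results below concern single members. The 3 comparisons of an age share arrays, so they are not independent of each other.

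With the mouse in the model, the undivided bulge over non-bulge comparison gave 5 higher and 1 lower keratin genes at PD21, against 9.02% and 7.63% of all genes. At PD25 it gave 5 higher and 7 lower, against 8.03% and 6.66%. For divided bulge over non-bulge cells the counts were 2 higher and 0 lower at PD21 (0.424% and 0% of all genes) and 3 higher and 3 lower at PD25 (7.58% and 4.76%). For divided over undivided bulge they were 2 higher and 4 lower at PD21 (6.54% and 6.71%) and 0 at PD25 (0.0864% and 0%). The arrays of the 2 groups did not overlap, with undivided bulge above non-bulge cells, for 5 keratin genes at PD21, against 12.8% of all genes, and with undivided bulge below for 0, against 13.3%. At PD25 these counts were 4 above and 6 below, against 12.7% and 11.7%. For divided bulge over non-bulge cells they were 2 above and 0 below at PD21 (5.06% and 3.66% of all genes) and 4 above and 3 below at PD25 (11.8% and 10.1%). For divided over undivided bulge they were 2 above and 6 below at PD21 (13% and 10.7%) and 3 above and 1 below at PD25 (6.19% and 3.74%). The median log2 fold change of the 28 genes was 0.30 in undivided bulge over non-bulge cells at PD21, with -0.05 over all genes, and -0.11 at PD25, with -0.02 over all genes.

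Among the 3 basal layer keratins, 0 of 3 passed in any comparison without the mouse in the model. Krt15 (type I, a marker of the bulge) had 15.83, 14.54 and 14.86 log2 signal in divided bulge, 15.71, 14.72 and 14.57 in undivided bulge and 15.74, 14.27 and 14.55 in non-bulge cells of mice 1, 2 and 3 at PD25. At PD21 it had 15.70, 15.39 and 14.35 in divided bulge, 16.22, 15.80 and 14.41 in undivided bulge and 15.29, 15.33 and 14.24 in non-bulge cells. The groups overlapped throughout, and non-bulge arrays lay at 14.24 or above. In undivided bulge over non-bulge cells at PD21 its log2 fold change was 0.52 ± 0.55 (SE, adjusted p = 0.646). With the mouse in the model the SE was 0.13 and the adjusted p 0.00502, since Krt15 was higher in undivided bulge in 3 of 3 mice, by 0.93, 0.47 and 0.17. Within set A the difference was 0.70 (adjusted p = 0.0153) and within set B 0.17 (adjusted p = 0.898).

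Krt5 (type II, the gene whose promoter drives the label) and its partner Krt14 (type I) were bright on all 18 arrays. At PD25 Krt14 had 15.08, 13.64 and 14.13 log2 signal in divided bulge, 14.50, 13.94 and 13.82 in undivided bulge and 15.27, 14.30 and 14.13 in non-bulge cells. At PD21 it had 15.08, 14.69 and 13.96 in divided bulge, 14.53, 14.69 and 13.70 in undivided bulge and 14.90, 14.72 and 13.84 in non-bulge cells. In undivided bulge over non-bulge cells at PD25, Krt14 differed by -0.48 ± 0.44 (SE, adjusted p = 0.658). It was lower in undivided bulge in 3 of 3 mice, by 0.77, 0.36 and 0.31, and was called with the mouse in the model (adjusted p = 0.0234); the within-set values were -0.77 in set A (adjusted p = 0.0893) and -0.33 in set B (adjusted p = 0.434). All 3 Krt14 probe sets were lower in this comparison, by -0.48, -0.68 and -1.24. Transcripts of Krt14, Krt17 and Krt42 are similar in sequence, and their probes may share signal.

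Krt5 had 15.39, 14.19 and 14.52 log2 signal in divided bulge, 15.24, 14.40 and 14.33 in undivided bulge and 15.42, 14.41 and 14.39 in non-bulge cells at PD25. At PD21 the values were 15.42, 14.89 and 14.26 in divided bulge, 15.52, 14.99 and 14.21 in undivided bulge and 14.85, 15.04 and 14.01 in non-bulge cells. Its groups overlapped in every comparison, and it passed in none, with or without the mouse in the model.

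**Figure D1:**
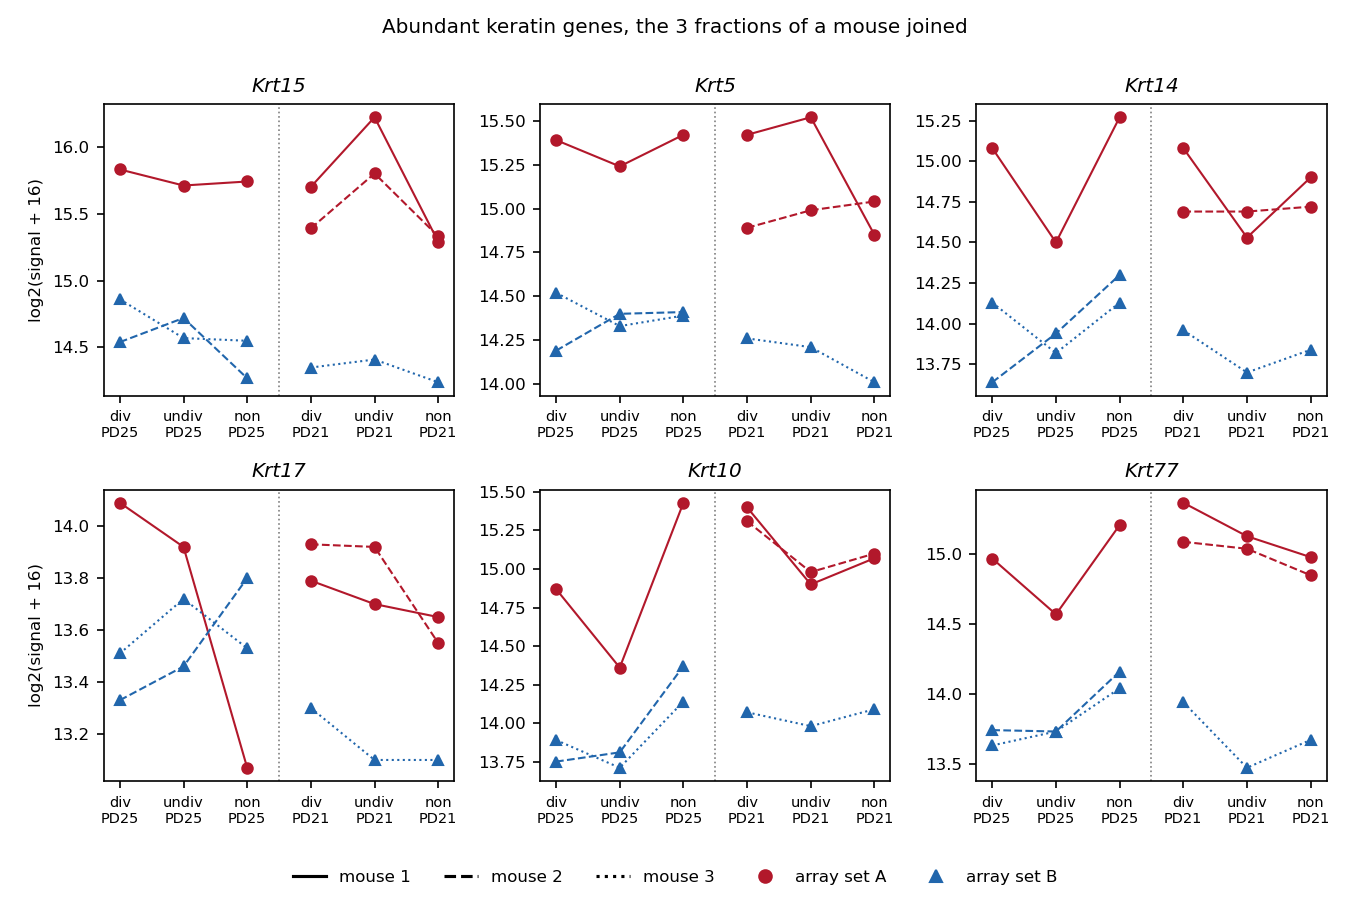
Log2 signal of abundant keratin genes (vertical axes) in the 3 sorted fractions at PD25 and PD21 (horizontal axes), with a line joining the 3 fractions of each mouse within an age. Circles are set A and triangles set B; within each fraction set A lies above set B for Krt15, Krt5, Krt14, Krt10 and Krt77, with Krt15 in undivided bulge at PD21 at 16.22 and 15.80 in set A and 14.41 in set B.

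The companion layer and wound keratins held the largest fold change among the tested keratin genes. Krt6a (type II) had signals of 8158.4, 8380.4 and 8723.3 in undivided bulge cells of mice 1, 2 and 3 at PD25, and of 444.5, 1206.8 and 554.9 in non-bulge cells. At PD21 the signals were 16548.1, 10349.1 and 9385.8 in undivided bulge and 417, 25 and 280.2 in non-bulge cells. All undivided bulge arrays thus lay above all non-bulge arrays, with the lowest signal in non-bulge cells of PD21 mouse 2. Krt6a was higher in undivided bulge by 6.08 ± 0.57 on the log2 scale at PD21 (SE, adjusted p = 7.31e-08) and by 3.62 ± 0.57 at PD25 (adjusted p = 7.33e-05). At PD21 the difference was 6.62 within set A and 4.99 within set B, and at PD25 it was 4.15 within set A and 3.36 within set B; each passed. In these bulk fractions, fewer cells that make Krt6a and less Krt6a RNA per cell cannot be told apart, and the same holds for every gene below.

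Divided bulge cells had Krt6a signals of 6704, 3563.8 and 8608.2 at PD25, all above the non-bulge arrays, while only mice 1 and 2 lay below every undivided bulge array. The log2 fold change over non-bulge cells was 3.11 ± 0.57 (SE, adjusted p = 0.000586), with 3.87 within set A and 2.73 within set B. Over undivided bulge it was -0.51 ± 0.57 and did not pass. At PD21 divided bulge cells had 952.1, 467.8 and 1343.1, below every undivided bulge array of that age. Krt6a was lower there than in undivided bulge by -3.77 ± 0.57 on the log2 scale (adjusted p = 0.000104), with -4.26 within set A and -2.79 within set B. Over non-bulge cells at PD21 the difference was 2.31 ± 0.57, with 3 of 3 mice higher, an adjusted p of 0.16, and 0.0123 with the mouse in the model. Without non-bulge mouse 1 it was 2.97 (adjusted p = 0.0299). Within set A it was 2.36 (adjusted p = 0.555) and within set B 2.20 (adjusted p = 0.36).

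All 3 Krt6a probe sets moved the same way. They gave, in undivided bulge over non-bulge cells at PD21, 5.55, 6.08 and 5.45, and at PD25 4.0, 3.62 and 4.09 on the log2 scale. For divided over undivided bulge at PD21 they gave -4.15, -3.77 and -4.16, and all of these passed when each probe set was fitted. Krt6b, a near copy of Krt6a, was above the array median on 2 of 18 arrays and was not tested, and how far the Krt6a probes also bind Krt6b RNA cannot be read from these values.

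**Figure D2:**
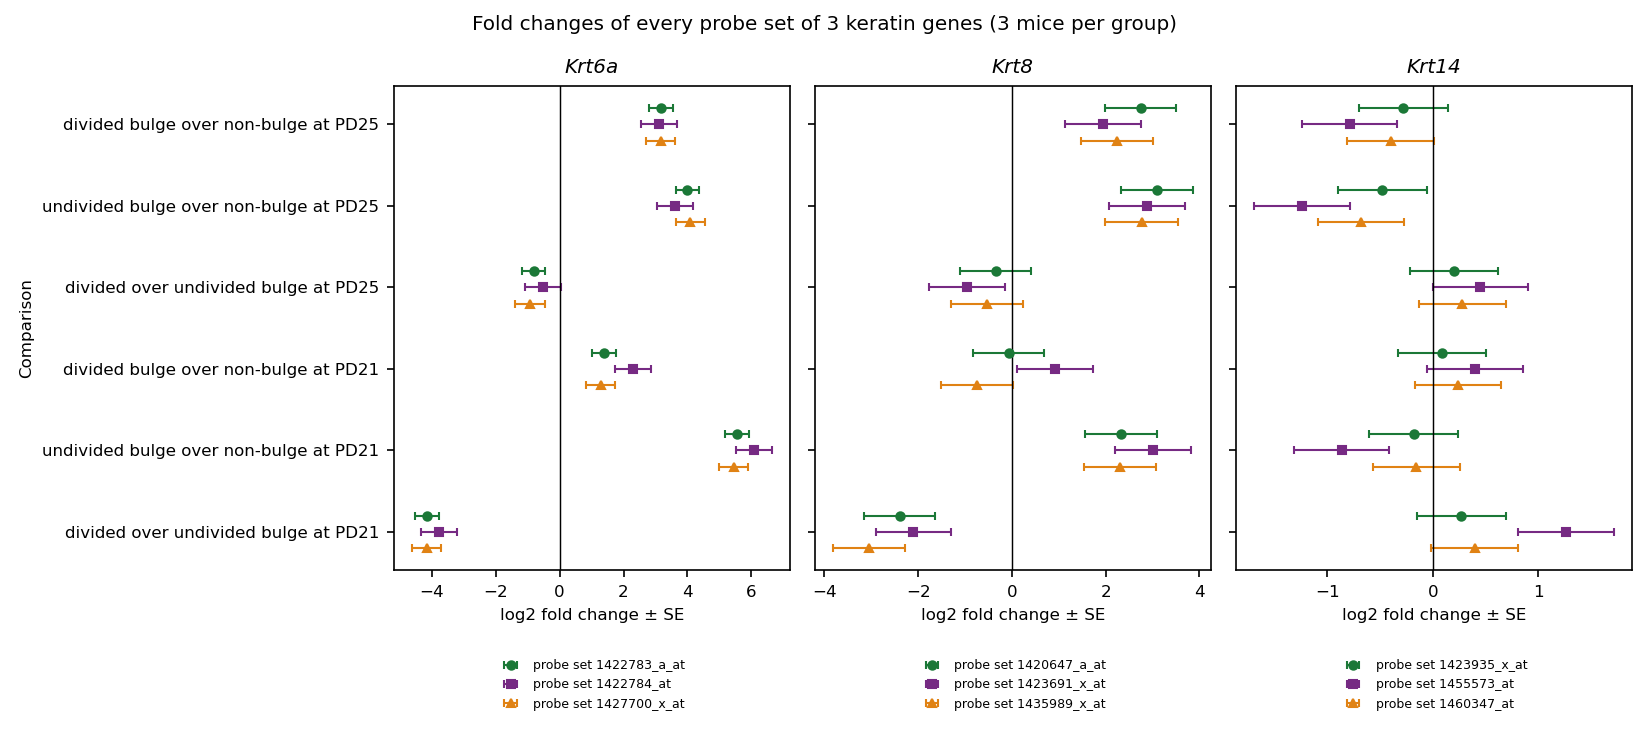
Log2 fold changes with their SE (horizontal axes) of every tested probe set of 3 keratin genes (panels) in the comparisons listed on the vertical axis, with 3 mice per group. The Krt6a probe sets lie close together, with 6.08, 5.55 and 5.45 in undivided bulge over non-bulge cells at PD21, whereas those of Krt8 straddle 0 in divided bulge over non-bulge cells at PD21.

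Krt75 (type II, companion layer) was dim, above the array median on 6 of 18 arrays. At PD25 it had 6.96, 6.54 and 7.98 log2 signal in divided bulge, 5.04, 6.51 and 8.08 in undivided bulge and 4.38, 4.57 and 5.13 in non-bulge cells. At PD21 it had 6.19, 4.35 and 5.94 in divided bulge, 7.08, 7.56 and 8.21 in undivided bulge and 6.07, 4.15 and 5.51 in non-bulge cells. Divided bulge arrays lay above the non-bulge arrays at PD25, and undivided bulge arrays above them at PD21. The log2 fold change was 2.47 ± 0.72 in divided bulge over non-bulge cells at PD25 (SE, adjusted p = 0.0299) and 2.38 ± 0.72 in undivided bulge over non-bulge cells at PD21 (adjusted p = 0.0315). The direction held within both sets, with 2.58 and 2.41 at PD25 and 2.21 and 2.70 at PD21 in sets A and B, of which only set B at PD25 passed (adjusted p = 0.0417).

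The Krt75 calls rested on single arrays. In divided bulge over non-bulge cells at PD25 the adjusted p was 0.102 without non-bulge mouse 1, 0.0864 without non-bulge mouse 2, 0.0615 without divided bulge mouse 1 and 0.163 without divided bulge mouse 3. In undivided bulge over non-bulge cells at PD21 it was 0.175 without non-bulge mouse 2, 0.0523 without non-bulge mouse 3, 0.0689 without undivided bulge mouse 2 and 0.115 without undivided bulge mouse 3. With the mouse in the model Krt75 was also higher in undivided bulge over non-bulge cells at PD25, by 1.85 (adjusted p = 0.0358, 0.117 without it), and lower in divided over undivided bulge at PD21, by -2.12 (adjusted p = 0.0178, 0.0698 without it). With single arrays left out, the first of these ran from 1.08 to 2.61 (adjusted p = 0.0276 to 0.477). It was 2.61 without undivided bulge mouse 1 (adjusted p = 0.0276). Within sets A and B the first was 0.66 and 2.45 (adjusted p = 0.873 and 0.0336) and the second -2.05 and -2.27 (adjusted p = 0.227 and 0.358).

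Krt16 (type I, a partner of Krt6a in wounds) ran the other way at PD25. It had 8.27, 7.10 and 9.44 log2 signal in divided bulge, 6.61, 7.41 and 8.37 in undivided bulge and 9.36, 9.45 and 9.17 in non-bulge cells of that age. Undivided bulge arrays lay below all non-bulge arrays, with a log2 fold change of -1.87 ± 0.61 (SE, adjusted p = 0.0536, and 0.0133 with the mouse in the model). With single arrays left out it ran from -2.32 to -1.44 (adjusted p = 0.0286 to 0.261). It was -2.32 without undivided bulge mouse 3 (adjusted p = 0.0286). Within set A the difference was -2.75 (adjusted p = 0.147) and within set B -1.42 (adjusted p = 0.213). At PD21 Krt16 had 8.46, 8.68 and 9.50 in divided bulge, 7.38, 7.57 and 8.18 in undivided bulge and 8.36, 6.18 and 8.71 in non-bulge cells. The divided bulge arrays lay above the undivided bulge arrays there, and the difference of 1.17 did not pass.

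Krt79 (type II, upper follicle and sebaceous duct) had 12.10, 11.88 and 12.34 log2 signal in divided bulge, 10.84, 11.02 and 11.57 in undivided bulge and 12.35, 12.28 and 11.96 in non-bulge cells at PD25. The undivided bulge arrays were the lowest at that age and overlapped with neither other fraction. Over non-bulge cells the log2 fold change of undivided bulge was -1.05 ± 0.48 (SE, adjusted p = 0.203, and 0.0442 with the mouse in the model), with -1.51 in set A (adjusted p = 0.189) and -0.82 in set B (adjusted p = 0.116). Divided bulge exceeded undivided bulge by 0.96, which did not pass. The summed signal of 5 sebaceous gland markers at PD25 was 9891 to 13306 in divided bulge, 13122 to 14688 in undivided bulge and 14471 to 19551 in non-bulge cells. Of the 5, 1 was called lower in undivided bulge over non-bulge cells at PD25 and 0 higher, against 4.83% and 5.71% of all genes. The part of sebaceous cells in the Krt79 values was not tested. The other tested genes of this role, Krt17 and Krt42, passed in no comparison.

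Of the 4 tested keratins of simple epithelia, Krt8 was called higher in undivided bulge over non-bulge cells at both ages and Krt19 at PD25 only. Krt8 (type II) was dim, above the array median on 8 of 18 arrays. It had 7.13, 8.22 and 4.90 log2 signal in divided bulge, 7.87, 7.17 and 8.05 in undivided bulge and 4.10, 4.31 and 6.00 in non-bulge cells at PD25. At PD21 it had 4.09, 6.00 and 6.39 in divided bulge, 6.58, 6.97 and 9.22 in undivided bulge and 5.19, 4.23 and 4.31 in non-bulge cells. Undivided bulge arrays lay above the non-bulge arrays at both ages, while the divided bulge arrays were spread from near the floor of 4 upward. At PD21 the divided bulge arrays lay below the undivided bulge arrays, by -2.10 on the log2 scale, which did not pass (adjusted p = 0.127).

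The log2 fold change of Krt8 in undivided bulge over non-bulge cells was 3.01 ± 0.82 at PD21 (SE, adjusted p = 0.0155) and 2.89 ± 0.82 at PD25 (adjusted p = 0.0206). Within sets A and B it was 2.06 and 4.91 at PD21 (adjusted p = 0.165 and 0.0384) and 3.77 and 2.45 at PD25 (adjusted p = 0.09 and 0.116). At PD21 the call was lost without non-bulge mouse 2 (2.84, adjusted p = 0.0627) and without undivided bulge mouse 3 (2.20, adjusted p = 0.114). At PD25 the adjusted p was 0.102 without non-bulge mouse 1, 0.0826 without non-bulge mouse 2, 0.0714 without undivided bulge mouse 1 and 0.0749 without undivided bulge mouse 3. The other Krt8 probe sets gave 2.33 and 2.31 at PD21 (adjusted p = 0.0556 and 0.0612) and 3.10 and 2.77 at PD25 (adjusted p = 0.00844 and 0.0215). In divided bulge over non-bulge cells at PD21 the 3 probe sets differed in sign, with 0.91, -0.07 and -0.74, and none passed.

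Krt8 is also made by Merkel cells, the touch cells of skin. The 5 Merkel cell markers had a summed signal of 52 to 126 in divided bulge, 38 to 94 in undivided bulge and 41 to 105 in non-bulge cells at PD25, and of 63 to 141 in divided bulge, 46 to 83 in undivided bulge and 70 to 112 in non-bulge cells at PD21. At most 1 of the 5 was above the array median on any array, and 0 in every undivided bulge array. Krt20, a keratin and the fifth of these markers, was above the median on 0 arrays, and Krt18, the usual type I partner of Krt8, on 2 of 18. All 5 markers were dim in every fraction, and the part of Merkel cells in the Krt8 values was not tested.

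Krt19 (type I, a keratin of simple epithelia and of the bulge) had 6.48, 8.24 and 7.75 log2 signal in divided bulge, 8.14, 7.82 and 8.40 in undivided bulge and 5.94, 6.41 and 5.15 in non-bulge cells at PD25. At PD21 it had 4.23, 6.56 and 6.39 in divided bulge, 6.70, 8.11 and 8.20 in undivided bulge and 6.84, 6.77 and 5.60 in non-bulge cells. Undivided bulge lay above non-bulge cells at PD25 by 2.29 ± 0.65 on the log2 scale (SE, adjusted p = 0.0227), with 2.20 in set A (adjusted p = 0.409) and 2.33 in set B (adjusted p = 0.0145). The call was lost without non-bulge mouse 1 (adjusted p = 0.0542), non-bulge mouse 3 (0.118), undivided bulge mouse 1 (0.0679) or undivided bulge mouse 3 (0.0811). Divided bulge arrays also lay above the non-bulge arrays at PD25, by 1.65, which did not pass. For undivided bulge over non-bulge cells at PD21, Krt19 differed by 1.27 ± 0.65 (SE, adjusted p = 0.259, and 0.162 with the mouse in the model). It was higher in 2 of 3 mice there, and the groups overlapped. In divided over undivided bulge at PD21 Krt19 had lower values in 3 of 3 mice, with -1.94 ± 0.65 (adjusted p = 0.0689, and 0.0327 with the mouse in the model). With single arrays left out it ran from -2.43 to -1.20 (adjusted p = 0.0417 to 0.374). It was -2.43 without undivided bulge mouse 1 (adjusted p = 0.0417). Within the array sets it was -2.01 in set A and -1.82 in set B.

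Krt23 (type I) had 10.74, 10.49 and 9.47 log2 signal in divided bulge, 9.68, 10.20 and 7.58 in undivided bulge and 9.06, 7.84 and 7.39 in non-bulge cells at PD21. The divided bulge arrays lay above the non-bulge arrays, by 2.13 ± 0.57 (SE, adjusted p = 0.259, and 0.0258 with the mouse in the model), with 2.16 in set A (adjusted p = 0.147) and 2.07 in set B (adjusted p = 1). At PD25 it had 8.65, 8.58 and 7.69 in divided bulge, 8.03, 8.18 and 9.54 in undivided bulge and 8.28, 7.81 and 8.56 in non-bulge cells, and the fractions overlapped. Krt7 (type II, glands and ducts) was dim. At PD25 it had 6.99, 6.37 and 6.49 in divided bulge, 5.40, 5.10 and 4.83 in undivided bulge and 5.91, 7.27 and 7.39 in non-bulge cells, so that the undivided bulge arrays were the lowest. Its values at PD21 were 6.15, 5.95 and 5.50 in divided bulge, 4.19, 6.92 and 6.22 in undivided bulge and 7.10, 4.97 and 7.16 in non-bulge cells. It passed in no comparison.

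**Figure D3:**
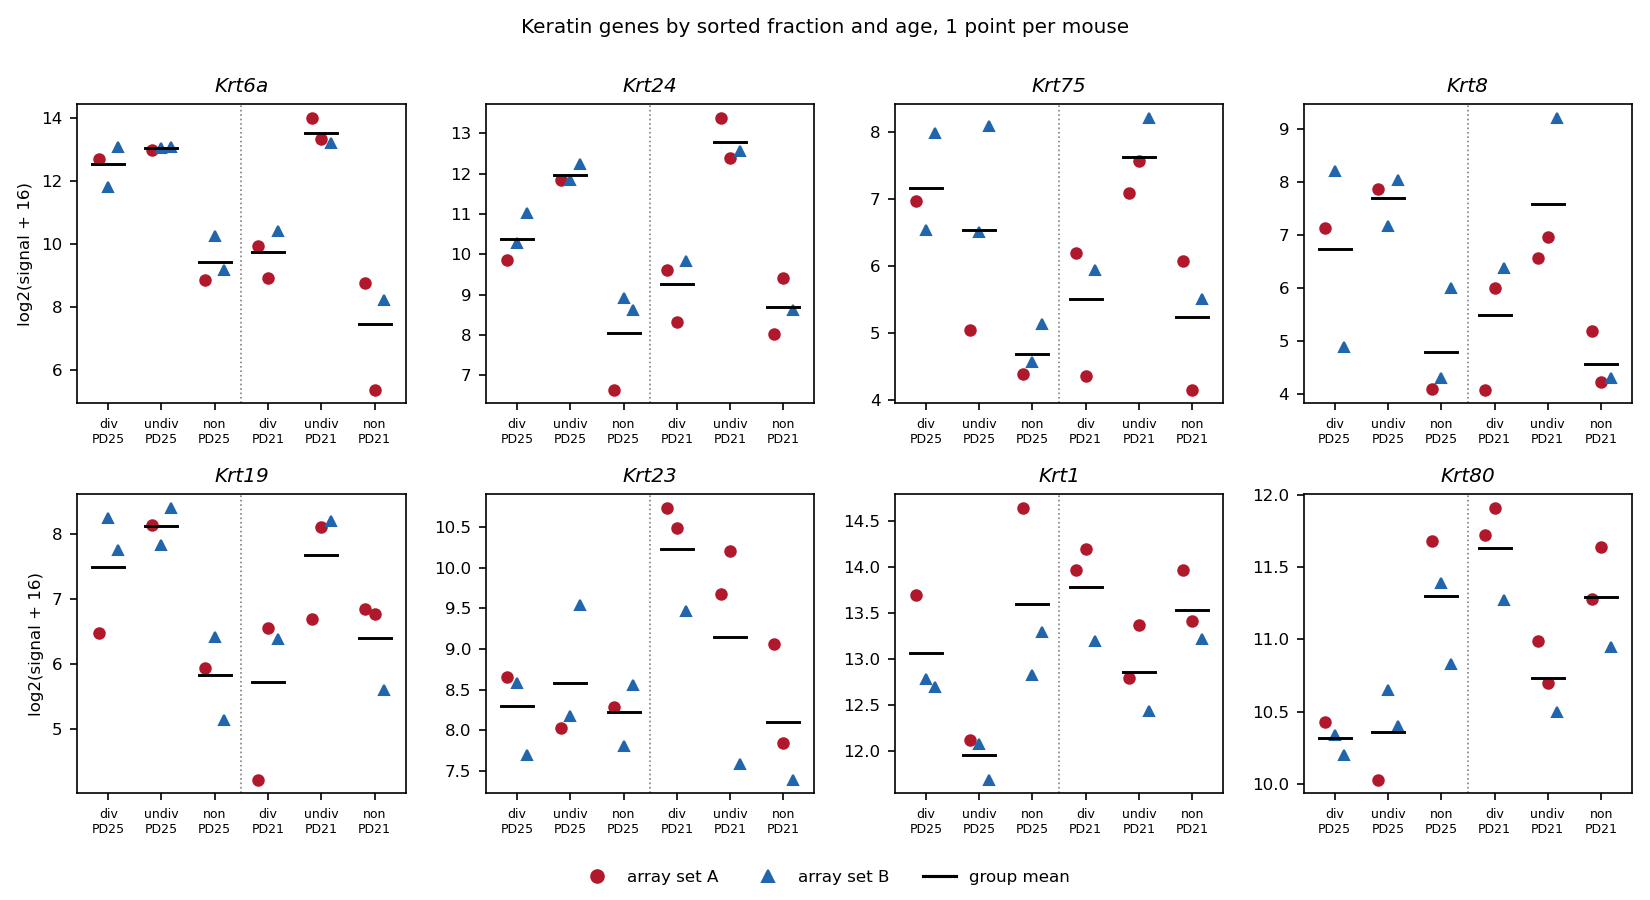
Log2 signal of keratin genes named in the text (vertical axes) in the 6 groups (horizontal axes, PD25 left of PD21), with 1 point per mouse (circles, array set A; triangles, array set B) and a line at the group mean. Krt6a in undivided bulge cells reaches 13.00 to 13.09 at PD25 and 13.20 to 14.02 at PD21, and the divided bulge arrays at PD21 lie at 8.92 to 10.41.

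Of the 3 tested suprabasal keratins, 1 was called lower in undivided bulge over non-bulge cells at PD25 without the mouse in the model, against 4.83% of all genes. With the mouse in the model 3 of 3 were called lower, against 6.66% of all genes. Krt1 (type II, early differentiation) had 13.69, 12.78 and 12.69 log2 signal in divided bulge, 12.12, 12.08 and 11.69 in undivided bulge and 14.64, 12.83 and 13.29 in non-bulge cells at PD25. The undivided bulge arrays were below those of both other fractions. Over non-bulge cells the log2 fold change was -1.62 ± 0.39 (SE, adjusted p = 0.0064), with -2.52 in set A (adjusted p = 0.000187) and -1.18 in set B (adjusted p = 0.00485). Without non-bulge mouse 1 it was -1.10 (adjusted p = 0.0713).

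At PD21 Krt1 had 13.96, 14.19 and 13.19 log2 signal in divided bulge, 12.79, 13.37 and 12.43 in undivided bulge and 13.96, 13.41 and 13.22 in non-bulge cells. Undivided bulge was lower than non-bulge cells in 3 of 3 mice, by -0.67 ± 0.39 (SE, adjusted p = 0.341, and 0.0475 with the mouse in the model), with -0.61 in set A (adjusted p = 0.126) and -0.80 in set B (adjusted p = 0.305). Divided bulge was higher than undivided bulge in 3 of 3 mice, by 0.92 ± 0.39 (adjusted p = 0.177, and 0.00817 with the mouse in the model), with 1.00 in set A (adjusted p = 0.0135) and 0.76 in set B (adjusted p = 0.41). At PD25 the divided bulge arrays also lay above the undivided bulge arrays, with a difference of 1.09 ± 0.39 (adjusted p = 0.615, and 0.0677 with the mouse in the model).

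Krt10, the type I partner of Krt1, had 14.87, 13.75 and 13.89 log2 signal in divided bulge, 14.36, 13.81 and 13.71 in undivided bulge and 15.43, 14.37 and 14.14 in non-bulge cells at PD25. Set A lay above set B in every fraction, and within a mouse non-bulge cells were the highest. In undivided bulge over non-bulge cells the difference was -0.69 ± 0.46 (SE, adjusted p = 0.472), with an SE of 0.13 and an adjusted p of 0.000396 with the mouse in the model. It was -1.07 in set A (adjusted p = 0.00585) and -0.49 in set B (adjusted p = 0.113). In divided bulge over non-bulge cells it was -0.48 (adjusted p = 0.712, and 0.013 with the mouse in the model), with -0.56 in set A (adjusted p = 0.201) and -0.43 in set B (adjusted p = 0.2).

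Krt77 (type II) had 14.97, 13.74 and 13.63 log2 signal in divided bulge, 14.57, 13.73 and 13.73 in undivided bulge and 15.21, 14.16 and 14.04 in non-bulge cells at PD25. It was lower in undivided bulge in 3 of 3 mice, by -0.46 ± 0.51 (SE, adjusted p = 0.74), and the SE was 0.12 with the mouse in the model (adjusted p = 0.0089); the within-set values were -0.64 in set A (adjusted p = 0.143) and -0.37 in set B (adjusted p = 0.298). At PD21 Krt10 had 15.40, 15.31 and 14.07 in divided bulge, 14.90, 14.98 and 13.98 in undivided bulge and 15.07, 15.10 and 14.09 in non-bulge cells, and Krt77 stayed between 13.47 and 15.37. Neither was called there in either model. Differentiating epidermis markers summed to 28157 to 55819 in divided bulge, 32311 to 45181 in undivided bulge and 37998 to 52892 in non-bulge cells at PD25, and their part in the Krt1, Krt10 and Krt77 values was not tested.

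Krt24 (type I) passed in the same 4 comparisons between fractions as Krt6a without the mouse in the model. Its signals were 915.7, 1214.6 and 2057.7 in divided bulge, 3638.9, 3614.4 and 4779.5 in undivided bulge and 83.4, 463.9 and 374.9 in non-bulge cells at PD25. At PD21 they were 764.5, 300.6 and 898.8 in divided bulge, 10693.3, 5310.7 and 6053.5 in undivided bulge and 242.8, 667.3 and 373.8 in non-bulge cells. At PD25 the 3 fractions did not overlap, with undivided bulge the highest and non-bulge cells the lowest. At PD21 the undivided bulge was the highest, and the other fractions overlapped.

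Krt24 was higher in undivided bulge over non-bulge cells by 4.10 ± 0.48 on the log2 scale at PD21 (SE, adjusted p = 1.83e-06) and by 3.91 ± 0.48 at PD25 (adjusted p = 3.26e-06). In divided bulge over non-bulge cells at PD25 it was higher by 2.33 ± 0.48 (adjusted p = 0.00209). In divided over undivided bulge it was lower by -3.53 ± 0.48 at PD21 (adjusted p = 4.13e-05), while at PD25 the difference of -1.58 ± 0.48 did not pass (adjusted p = 0.472, and 0.158 with the mouse in the model), although the arrays did not overlap. Within sets A and B these values were 4.17 and 3.96 at PD21, 5.20 and 3.27 at PD25, 3.23 and 1.88 for divided bulge over non-bulge cells, and -3.93 and -2.73 for divided over undivided bulge at PD21, and each of these passed.

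Krt80 (type II, made by differentiated cells of many epithelia) was above the median on all 18 arrays. At PD25 it had 10.43, 10.34 and 10.20 log2 signal in divided bulge, 10.03, 10.65 and 10.40 in undivided bulge and 11.68, 11.39 and 10.83 in non-bulge cells. At PD21 it had 11.72, 11.91 and 11.27 in divided bulge, 10.99, 10.70 and 10.50 in undivided bulge and 11.28, 11.64 and 10.95 in non-bulge cells. Non-bulge cells were the highest at PD25, and divided bulge arrays lay above undivided bulge arrays at PD21.

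At PD25 Krt80 was lower than in non-bulge cells by -0.98 ± 0.26 in divided bulge (SE, adjusted p = 0.014) and by -0.94 ± 0.26 in undivided bulge (adjusted p = 0.0164). For divided bulge the within-set values were -1.25 in set A (adjusted p = 0.078) and -0.84 in set B (adjusted p = 0.167), and for undivided bulge -1.65 in set A (adjusted p = 0.0122) and -0.58 in set B (adjusted p = 0.409). For divided bulge the adjusted p was 0.102 without non-bulge mouse 1, 0.0508 without non-bulge mouse 2 and 0.0636 without divided bulge mouse 3. For undivided bulge it was 0.116 without non-bulge mouse 1, 0.054 without non-bulge mouse 2 and 0.11 without undivided bulge mouse 1.

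In divided over undivided bulge at PD21 Krt80 was higher by 0.90 ± 0.26 (SE, adjusted p = 0.0273), with 0.97 in set A (adjusted p = 0.0325) and 0.77 in set B (adjusted p = 0.611). The adjusted p was 0.0725 without undivided bulge mouse 2, 0.11 without undivided bulge mouse 3, 0.0977 without divided bulge mouse 1 and 0.145 without divided bulge mouse 2. Krt78 and Krt88, the other tested genes of this role, passed in no comparison. Krt78 (type II, differentiating epidermis) lay between 8.65 and 11.29 log2 signal, and Krt88 between 5.54 and 7.42. At PD21 Krt88 had 6.94, 6.02 and 6.45 in divided bulge, below the 7.42, 6.95 and 7.30 in undivided bulge.

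The inner root sheath and hair shaft keratins were mostly dim. Of 7 inner root sheath genes, 3 were tested, and 0 of 3 passed in any comparison. Krt25 (type I) ranged from 4.33 to 9.58 log2 signal, with its highest values of 9.58 and 9.43 in divided bulge cells of mouse 1 at PD25 and of mouse 1 at PD21. At PD25 it had 5.20, 5.07 and 4.85 in undivided bulge, below the 7.86, 7.32 and 6.52 in non-bulge cells. At PD21 the undivided bulge had 8.29, 5.48 and 6.78, and non-bulge cells had 6.05, 4.45 and 5.08. Krt27 (type I) ranged from 4.22 to 8.02 and Krt71 (type II) from 4.15 to 8.51, both highest in divided bulge of PD25 mouse 1. Krt27 in undivided bulge did not overlap with non-bulge cells at PD21, with 7.50, 5.58 and 5.26 against 4.22, 5.02 and 4.29, and did not pass. It had 5.74, 6.82 and 5.64 in non-bulge cells at PD25.

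Of 12 hair shaft genes, 5 were tested. Krt32 (type I, hair cuticle) had 7.89, 8.67 and 9.39 log2 signal in divided bulge, 8.69, 8.85 and 9.93 in undivided bulge and 9.42, 10.22 and 9.94 in non-bulge cells at PD25. Divided bulge arrays lay below the non-bulge arrays, by -1.21 ± 0.39 (SE, adjusted p = 0.0528, and 0.0151 with the mouse in the model), with -1.53 in set A (adjusted p = 0.203) and -1.05 in set B (adjusted p = 0.202). With single arrays left out it ran from -1.58 to -0.83 (adjusted p = 0.0184 to 0.297). It was -1.43 without non-bulge mouse 1 (adjusted p = 0.0445) and -1.58 without divided bulge mouse 3 (adjusted p = 0.0184). At PD21 Krt32 had 9.63, 9.91 and 9.44 in divided bulge, 8.90, 8.81 and 9.85 in undivided bulge and 9.46, 9.54 and 9.47 in non-bulge cells. The other 4, Krt34, Krt36, Krt81 and Krt83, lay between 4.09 and 7.70 and passed in no comparison. Of these, Krt36 had 5.84, 5.49 and 5.61 in divided bulge at PD25, just below the 6.29, 6.22 and 6.35 in non-bulge cells.

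The 20 keratin genes that were not tested have 25 probe sets, each above the array median on at most 2 of 18 arrays, with log2 signals of 4.04 to 8.49. They include Krt2 of cornifying epidermis, Krt4 and Krt13 of mucosa, Krt12 of cornea, Krt18 and Krt20 of simple epithelia, and the hair shaft genes Krt31, Krt33a, Krt33b, Krt35, Krt82, Krt84 and Krt86. The highest value, 8.49, was that of Krt6b in divided bulge of PD21 mouse 3. A value this low is a statement about the probe sets and does not show that the gene is silent.

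Between ages, divided bulge cells changed in 3 keratin genes. In PD25 over PD21 divided bulge 1 keratin gene was higher and 2 lower, against 4.37% and 3.47% of all genes, a share near that of the list; with the mouse as a random block the counts were the same, against 4.46% and 3.48%. Krt6a was higher by 2.78 ± 0.57 on the log2 scale (SE, adjusted p = 0.00251), with 3.30 in set A (adjusted p = 0.0402) and 2.03 in set B (adjusted p = 0.0725). Krt80 was lower by -1.31 ± 0.26 (adjusted p = 0.00165), with -1.38 in set A (adjusted p = 0.0191) and -1.0 in set B (adjusted p = 0.325). Krt23 was lower by -1.93 ± 0.57 (adjusted p = 0.0388), with -1.97 in set A (adjusted p = 0.0609) and -1.34 in set B (adjusted p = 0.5).

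The Krt23 call between ages had an adjusted p of 0.187, 0.146, 0.06, 0.0599 and 0.183 without divided bulge PD21 mouse 1, PD21 mouse 2, PD25 mouse 1, PD25 mouse 2 and PD25 mouse 3. The bulge marker sum of divided bulge was 33341 to 46956 at PD25 and 6471 to 10637 at PD21, and that of the non-bulge epidermis markers 2965 to 3267 at PD25 and 11296 to 15630 at PD21. At PD21 the Krt6a mean of divided bulge, 9.75 log2 signal, lay between those of undivided bulge (13.52) and non-bulge cells (7.44). The Krt23 mean of 10.23 lay above both (9.15 and 8.10), as did the Krt80 mean of 11.63 (10.73 and 11.29). The part of the cells behind the marker sums in the 3 changes was not tested. Arrays of the 2 ages did not overlap for 4 higher and 3 lower keratin genes in divided bulge, against 10.9% and 10.4% of all genes. Besides the 3 that passed these were Krt24, Krt7 and Krt75, higher at PD25, and Krt32, lower at PD25, with the values given above.

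In undivided bulge 0 of 28 keratin genes passed between ages, against 0.0605% and 0.0346% of all genes as higher and lower. An unadjusted p under 0.05 was seen for 929 of all 11569 genes and for 1 of 28 keratin genes. That gene was Krt1, with 12.12, 12.08 and 11.69 log2 signal at PD25 and 12.79, 13.37 and 12.43 at PD21. In non-bulge cells 0 of 28 passed, against 0.0259% and 0.0173% of all genes. Here 511 of all 11569 genes and 2 of 28 keratin genes had an unadjusted p under 0.05. The keratin genes were Krt6a, with 8.85, 10.26 and 9.16 at PD25 and 8.76, 5.36 and 8.21 at PD21, and Krt16, with 9.36, 9.45 and 9.17 at PD25 and 8.36, 6.18 and 8.71 at PD21. In both, non-bulge cells of PD21 mouse 2 were the lowest. With the mouse as a random block these counts stayed at 0, against 0.121% and 0.0692% of all genes in undivided bulge and 0.0259% and 0.0173% in non-bulge cells. Arrays did not overlap for 0 higher and 4 lower keratin genes in undivided bulge (7.12% and 5.13% of all genes), which were Krt1, Krt6a, Krt24 and Krt25. In non-bulge cells this held for 4 higher and 0 lower (4.93% and 3.93%), which were Krt6a, Krt16, Krt25 and Krt27. The median log2 fold change of the 28 genes was -0.15 in divided bulge, -0.44 in undivided bulge and 0.04 in non-bulge cells, against -0.004, 0.02 and 0.02 over all genes. Set A holds mouse 1 of PD25 but mice 1 and 2 of PD21, and abundant keratins such as Krt15 and Krt77 were higher in set A. The part of the array sets in these medians was not tested.

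The difference between fractions was then compared between ages. The divided over undivided bulge difference of Krt6a was -0.51 at PD25 and -3.77 at PD21, a change of 3.26 ± 0.80 (SE, adjusted p = 0.0426, and 0.00441 with the mouse in the model). It was the 1 keratin gene called of 28, against 0.813% of all genes as higher and 0.372% as lower (2.71% and 1.67% with the mouse in the model). Within set A the change was 3.98 (adjusted p = 0.182) and within set B 2.17 (adjusted p = 0.391). The adjusted p was 0.0565 to 0.128 without any of 10 single arrays, namely the 3 undivided bulge arrays of PD25, those of mice 1 and 3 of divided bulge at PD25, the 3 undivided bulge arrays of PD21 and those of mice 1 and 2 of divided bulge at PD21.

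For undivided bulge over non-bulge cells, 0 of 28 keratin genes and 0% of all genes passed for a change between ages. An unadjusted p under 0.05 was seen for 3 keratin genes, against 446 of all 11569 genes. With the mouse in the model 0 keratin genes passed, against 0.0173% of all genes. For divided bulge over non-bulge cells 0 of 28 passed, against 0.916% and 0.717% of all genes as higher and lower. At an unadjusted p under 0.05 there were 7 of 28, against 1365 of all 11569 genes. With the mouse in the model 3 were called as lower at PD25 and 0 as higher, against 1.55% and 2.35% of all genes. These were Krt80 by -1.32 (adjusted p = 0.0182, 0.0663 without it), Krt77 by -0.66 (0.0255, 0.858 without it) and Krt10 by -0.65 (0.0418, 0.836 without it). With single arrays left out and the mouse not in the model, the Krt80 change ran from -1.55 to -1.13 (adjusted p = 0.0344 to 0.187). Krt80 was called there without non-bulge PD21 mouse 2 (-1.49, adjusted p = 0.0467), divided bulge PD21 mouse 3 (-1.50, 0.0344) or non-bulge PD25 mouse 3 (-1.55, 0.0367). Within sets A and B, none of these passed, with -1.60 and -1.16 for Krt80, -0.56 and -0.68 for Krt77 and -0.83 and -0.41 for Krt10.

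Promoters of 4 keratin genes with calls are shown because Krt24, Krt75 and Krt8 were all higher in undivided bulge over non-bulge cells at PD21, while Krt10 was lower in undivided bulge at PD25 with the mouse in the model. Each run is 300 bases from RefSeq, build GRCm38.p6, from 250 bases before to 50 after the gene's start, 5′ to 3′ on the gene's strand, with matches to TATAAA on either strand in capitals.
Krt24 (chr11:99285213-99285512, minus strand): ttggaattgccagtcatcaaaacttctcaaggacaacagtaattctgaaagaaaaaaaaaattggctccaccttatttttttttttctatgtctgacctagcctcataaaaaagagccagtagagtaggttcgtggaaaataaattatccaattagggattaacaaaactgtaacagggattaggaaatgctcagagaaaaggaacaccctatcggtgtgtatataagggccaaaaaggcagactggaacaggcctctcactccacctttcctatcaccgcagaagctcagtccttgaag
Krt75 (chr15:101573855-101574154, minus strand): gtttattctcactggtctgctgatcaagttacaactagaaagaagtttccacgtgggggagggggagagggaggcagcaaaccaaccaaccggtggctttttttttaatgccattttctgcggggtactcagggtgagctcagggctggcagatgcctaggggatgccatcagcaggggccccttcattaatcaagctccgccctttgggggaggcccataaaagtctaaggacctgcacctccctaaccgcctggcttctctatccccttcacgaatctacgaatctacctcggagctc
Krt8 (chr15:102004293-102004592, minus strand): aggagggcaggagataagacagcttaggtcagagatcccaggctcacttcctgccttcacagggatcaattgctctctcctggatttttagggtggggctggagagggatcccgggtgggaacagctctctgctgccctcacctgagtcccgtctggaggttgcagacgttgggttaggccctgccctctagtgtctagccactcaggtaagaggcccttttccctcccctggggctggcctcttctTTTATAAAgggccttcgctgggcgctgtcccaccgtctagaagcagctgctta
Krt10 (chr11:99389315-99389614, minus strand): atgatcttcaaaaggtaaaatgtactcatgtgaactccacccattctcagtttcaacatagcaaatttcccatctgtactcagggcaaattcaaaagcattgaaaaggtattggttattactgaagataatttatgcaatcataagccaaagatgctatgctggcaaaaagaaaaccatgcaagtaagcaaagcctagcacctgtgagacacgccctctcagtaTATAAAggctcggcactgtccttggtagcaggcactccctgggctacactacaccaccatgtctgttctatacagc

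TATAAA, the core of the TATA box, was found at base 225 of the Krt10 run and in overlapping matches on both strands at bases 248 and 250 of the Krt8 run. Since 250 bases of a run precede the gene's start, the Krt8 matches lie across the start and the Krt10 match before it. The Krt8 matches are not shown to be a TATA box. The Krt24 and Krt75 runs do not hold these exact letters. They hold the similar letters tatataag and cataaaag, which the search did not count, so a TATA box is not shown to be absent. TATAAA was in 13.6% of all 32851 promoters of the table and in 18 of the 33 promoters of 32 keratin genes listed there. TGANTCA (the site of AP-1 factors) was in 7.81% of all promoters and in 2 of 33, TAATTA (homeodomain factors) in 5.29% and 5 of 33, and ACAAAG (TCF/LEF and SOX factors) in 18.7% and 4 of 33, on either strand. None of these other motifs was in the 4 runs, and a match is a description of letters and no sign that a factor binds.

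A list of 26 partner genes (desmosome, plakin and hemidesmosome proteins that hold keratin filaments, and transcription factors of keratin genes) was read beside the keratins. It shares genes with the marker lists and with the sort itself, where α6-integrin was used, and 25 of the 26 were tested. At PD21, undivided bulge over non-bulge cells gave 2 partner genes higher and 1 lower, against 6.12% and 4.93% of all genes, and 3 higher and 4 lower with the mouse in the model, against 9.02% and 7.63%. At PD25 it gave 1 higher and 4 lower, against 5.71% and 4.83% of all genes, and 1 higher and 6 lower with the mouse in the model, against 8.03% and 6.66%. Hoxc13, a regulator of hair keratin genes, was higher by 3.47 ± 0.48 at PD21 (SE, adjusted p = 1.62e-05) and by 3.55 ± 0.48 at PD25 (adjusted p = 1.08e-05). Klf5, a factor of basal keratinocytes, was lower by -1.72 ± 0.28 at PD21 (adjusted p = 0.000127) and by -2.71 ± 0.28 at PD25 (adjusted p = 3.39e-07). Itgb4, which anchors keratin filaments at the hemidesmosome, was higher at PD21 by 1.18 (adjusted p = 0.00288). At PD25 Ovol1, Grhl3 and the plakin gene Ppl were lower by -2.06, -1.55 and -1.04.

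The further calls with the mouse in the model were these. Tfap2c, a transcription factor of keratinocytes, was lower in undivided bulge over non-bulge cells by -1.16 at PD21 (adjusted p = 4.67e-05, 0.147 without it) and by -1.15 at PD25 (adjusted p = 5.17e-05, 0.167 without it). Pkp1, a desmosome plaque protein, was lower by -0.47 at PD21 (adjusted p = 0.0266, 0.535 without it) and by -0.44 at PD25 (adjusted p = 0.0417, 0.64 without it). At PD21 Grhl3 was also lower, by -1.25 (adjusted p = 0.041, 0.072 without it), and Col17a1 of the hemidesmosome was higher, by 0.43 (adjusted p = 0.0462, 0.599 without it).

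In divided bulge over non-bulge cells 0 partner genes passed at PD21, against 0.182% of all genes as higher and 0% as lower. At an unadjusted p under 0.05 there was 1 of 25, against 487 of all 11569 genes. At PD25 1 was higher and 3 were lower (5.62% and 3.25% of all genes). Hoxc13 was higher by 3.75, and Klf5, Grhl3 and Ppl were lower by -2.10, -1.65 and -1.08. With the mouse in the model Tfap2c was lower too, by -0.77 (adjusted p = 0.00395, 0.471 without it). In divided over undivided bulge at PD21 1 partner gene was higher and 2 were lower (3.91% and 4.37% of all genes), Klf5 by 1.76, and Hoxc13 and Itgb4 by -2.28 and -0.87. With the mouse in the model 3 were higher and 2 lower (6.54% and 6.71%), with Tfap2c higher by 0.98 (adjusted p = 0.00044, 0.269 without it) and Pkp1 by 0.55 (adjusted p = 0.0114, 0.484 without it). In divided over undivided bulge at PD25 0 of 25 passed, against 0% of all genes. At an unadjusted p under 0.05 there were 2 of 25, against 635 of all 11569 genes. In PD25 over PD21 divided bulge 1 was higher and 3 were lower in both models (4.37% and 3.47% of all genes without the mouse). Hoxc13 was higher by 2.87, and Klf5, Grhl3 and Ppl were lower by -2.31, -1.52 and -1.16. The 5 tested hair shaft keratins were not called in undivided bulge over non-bulge cells at either age.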

How the data were processed

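Each array was hybridised with amplified RNA of 1 sorted fraction, per the labels' protocols. The authors deposited 1 signal intensity per probe set, made with GCOS per the submitters' processing notes (version not given in the sources used); the values have a 2% trimmed mean of 500 on all 18 arrays. Array medians were 60.3 to 116.6, and the number of arrays limits the precision. Of the non-control probe sets, 34945 have 1 gene symbol, 932 several and 9160 none listed. Of those with 1 symbol, 34741 matched RefSeq by gene ID, as did all 61 keratin probe sets.

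Values were tested as log2(signal + 16) in R 4.3.3 with limma 3.58.1 (6 group means, variance trend, Benjamini-Hochberg over all genes). Tested genes lay above the array median on at least 3 arrays. The mouse was a fixed block within an age and a random block between ages. Deviations of fractions from 1 mouse correlated at 0.07 to 0.46, and those of other mice of that age at -0.26 to 0.13; the pairing comes from the titles. Alternatives were the block, pseudocounts of 1 and 64, no filter, every probe set, no trend, quantile normalization, only the groups compared, array set as a block, and leaving out each array; fits within each array set were added after seeing the data. The script was tested on simulated data. Genes are named when called in either model, when their groups do not overlap, or when they are Krt15, Krt6a, Krt14, Krt5 or Krt8. Members and lists were chosen with earlier results of these data known.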

Additional observations from a re-analysis of the deposited data

Results flagged for a closer look

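The change between ages in the divided over undivided bulge difference differed from 0 in Krt6a, by 3.26 on the log2 scale (limma interaction term, SE 0.80, adjusted p = 0.0426). Its log2 signals at PD25 were 12.71, 11.81 and 13.07 in divided and 13.00, 13.04 and 13.09 in undivided bulge, and at PD21 9.92, 8.92 and 10.41 in divided and 14.02, 13.34 and 13.20 in undivided bulge. Each of 3 mice at both ages had the lower value in divided bulge, by 0.28, 1.23 and 0.02 at PD25 and by 4.10, 4.42 and 2.79 at PD21. The adjusted p was 0.0222 to 0.128 when single arrays were left out, and 0.182 and 0.391 within array sets A and B.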

How the results depend on the processing

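Of 39 gene and comparison pairs followed, 21 were called without the mouse in the model. All 21 kept their direction under every alternative run, and 8 kept the call under every alternative; these 8 are the Krt6a and Krt24 differences between fractions. With the replicate block, the mouse in the model, 12 keratin genes were called in undivided bulge over non-bulge cells at PD25, 2 in divided bulge over non-bulge cells at PD21, 6 in divided over undivided bulge at PD21 and 3 for the change between ages in divided bulge over non-bulge cells; it ended no call. With array set as a block the counts were 10 in undivided bulge over non-bulge cells at PD25, 6 in divided over undivided bulge at PD21, 5 between ages in divided bulge and 1 for the change in divided bulge over non-bulge cells. Quantile normalization gave 6 in divided over undivided bulge at PD21. The shares over all genes under array set as a block and quantile normalization are not given here. These counts are therefore not read as a result about keratins as a list. The 1 gene called for the change in divided over undivided bulge, Krt6a, became 0 with a pseudocount of 1, with no variance trend, within set A and within set B. Within set B the count between ages in divided bulge was 0. Leaving out single arrays gave 0 to 1 genes for that change in divided over undivided bulge and in divided bulge over non-bulge cells, 0 to 1 in divided bulge over non-bulge cells at PD21 and 2 to 4 at PD25, 2 to 4 in undivided bulge over non-bulge cells at PD21 and 2 to 6 at PD25. It gave 2 to 4 genes in divided over undivided bulge at PD21 and 2 to 4 between ages in divided bulge. The cause of these moves was not tested. Dim genes such as Krt8, Krt75 and Krt19 are limited by signal over background, and with 3 arrays a group the fit rests on a spread shared by all 6 groups.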
